A study of Homo sapiens with 40 samples.

Results

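Small nucleolar RNA host genes are genes whose introns carry small nucleolar RNAs (snoRNAs). The 10 long noncoding hosts GAS5, SNHG1, SNHG5, SNHG6, SNHG7, SNHG8, SNHG12, SNHG15, SNHG16 and ZFAS1 were taken by name, each matched to its Ensembl identifier, from the 60279 genes counted in single T47D cells. T47D is a luminal, estrogen receptor positive human breast cancer cell line. All cells came from 1 culture at passage 10 and were sorted as single EpCAM and CD49f positive, CD45 and CD31 negative cells. Each of 3 full-length RNA sequencing protocols then had its own plate and sequencing run. G&T separates the RNA of a cell from its genomic DNA before making cDNA, whereas Takara (the SMART-seq HT kit) and NEB (the NEBNext Single Cell/Low Input kit) make cDNA directly in the lysate. The question behind the design was how completely and how evenly each protocol captures the transcripts of a cell. Of 13 G&T, 13 Takara and 14 NEB cells, 11 of each passed the quality thresholds and were used. With 1 plate and 1 run each, a protocol counts as 1 sample. Its effect and that of its run cannot be told apart, no test was made, and every mean, SD and range describes cells of 1 run.

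Most human snoRNAs are cut from introns while the host transcript is spliced. C/D snoRNAs (symbols beginning SNORD) guide ribose methylation and H/ACA snoRNAs (SNORA) guide pseudouridylation, mainly of ribosomal RNA. The spliced host transcript is a separate product that is polyadenylated and can be captured by the oligo-dT priming of all 3 protocols. Many hosts, like ribosomal protein genes, begin transcription in a run of pyrimidines, the terminal oligopyrimidine motif, and several spliced hosts engage ribosomes and are degraded by nonsense-mediated decay. In tumour cells these hosts are commonly studied as growth-related noncoding RNAs.

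By the RefSeq gene spans (GRCh38.p14), the hosts contain 37 snoRNAs. GAS5 (ENSG00000234741; chromosome 1, 173858559 to 173868882, minus strand) holds 11, and SNHG1 (ENSG00000255717; chromosome 11, 62851978 to 62855953, minus) holds 9, nearly all of the C/D class in both. The other hosts of C/D snoRNAs are SNHG16 (ENSG00000163597; chromosome 17, 76557727 to 76670985, plus) with 3, ZFAS1 (ENSG00000177410; chromosome 20, 49278178 to 49299600, plus) with 3, SNHG5 (ENSG00000203875; chromosome 6, 85650491 to 85678932, minus) with 2 and SNHG6 with 1. H/ACA snoRNAs are hosted by SNHG7 (ENSG00000233016; chromosome 9, 136721366 to 136728184, minus) with 2, SNHG8 (ENSG00000269893; chromosome 4, 118278703 to 118285316, plus) with 1 and SNHG15 (ENSG00000232956; chromosome 7, 44983019 to 44986961, minus) with 1. SNHG12 (ENSG00000197989; chromosome 1, 28578538 to 28583132, minus) holds 4, SNORD99 of the C/D class and 3 of the H/ACA class. Host coordinates are those of GENCODE release 44, which annotates all 10 as long noncoding RNA genes.

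The start regions of 8 hosts are in the RefSeq promoter table. They are shown because a pyrimidine run at the start is the feature that ties hosts to ribosomal protein genes. Each sequence covers 30 bases before and 30 bases from the start listed in that table. It is read 5′ to 3′ on the strand of the gene, with the longest run of C and T in capitals. Where runs tie in length, only the first is in capitals.
GAS5 chr1:173869016-173869075, minus: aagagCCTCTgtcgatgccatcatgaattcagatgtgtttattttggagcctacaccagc
SNHG1 chr11:62855856-62855915, minus: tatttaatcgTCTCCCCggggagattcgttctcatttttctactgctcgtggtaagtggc
SNHG5 chr6:85678704-85678763, minus: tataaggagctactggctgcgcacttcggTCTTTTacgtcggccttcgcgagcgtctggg
SNHG7 chr9:136728155-136728214, minus: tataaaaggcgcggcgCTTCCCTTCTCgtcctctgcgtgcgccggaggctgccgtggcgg
SNHG8 chr4:118278732-118278791, plus: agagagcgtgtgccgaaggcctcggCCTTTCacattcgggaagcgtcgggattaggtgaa
SNHG12 chr1:28581844-28581903, minus: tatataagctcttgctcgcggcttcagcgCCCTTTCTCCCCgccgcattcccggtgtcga
SNHG16 chr17:76557734-76557793, plus: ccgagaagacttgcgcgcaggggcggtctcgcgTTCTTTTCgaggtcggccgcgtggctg
ZFAS1 chr20:49278612-49278671, plus: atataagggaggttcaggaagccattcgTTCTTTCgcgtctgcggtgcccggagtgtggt

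A run of at least 6 pyrimidines on the gene strand lay in the window of 7 of the 8 hosts. The same holds for 49.6% of all 35115 promoters in the table and for 93.6% of the 78 ribosomal protein promoters. The median longest run was 7 bases in the hosts, 5 in all promoters and 11.5 in ribosomal protein promoters. The longest host run, 12 bases in SNHG12, began at the base before the listed start and is matched or exceeded in 5.96% of all promoters and in 50% of ribosomal protein promoters. The 11-base run of SNHG7 began 14 bases before its listed start, and the 7-base run of SNHG1 began 20 bases before its own. Both runs ended upstream of the start, while that of SNHG16 began at base 4 counted from its start. SNHG1 has another 7-base run, not in capitals, that begins at base 5 counted from its start. SNHG7 also has a shorter run, of 6 bases, across its listed start. SNHG6 and SNHG15 had no entry. For 6 of the 8 the listed start is the 5′ end of the RefSeq gene, but it lies 1110 bases downstream of that end for SNHG12 and 464 bases downstream for ZFAS1, so their windows cover 1 of several possible starts. The listed start of GAS5 lies upstream of the GENCODE 44 span given above. A run is a description of letters in this window and shows neither where transcription began in these cells nor that the motif was used.

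G&T cells had 658154 to 1166630 reads on genes, while Takara cells had 818512 to 1287910 and NEB cells 624772 to 963816. Reads that STAR could not assign because genes overlap made up 7.04% to 10.5% of a G&T cell, 10.0% to 11.2% of a Takara cell and 5.41% to 6.06% of a NEB cell. Mitochondrial genes held 9.18% to 21.7% of the library of a G&T cell, 7.84% to 13.2% of a Takara library and 6.97% to 9.39% of a NEB library. All 8 luminal markers had reads in each protocol, and their summed level per cell ran from 3929 to 14767 CPM (reads scaled to 1000000 reads on genes) with G&T, 10038 to 26857 CPM with Takara and 1893 to 5556 CPM with NEB. Of the 3 immune and 2 endothelial markers none was seen with Takara or NEB, and the G&T sums were 0 to 2.48 and 0 to 12 CPM. The luminal list holds EPCAM, the immune list PTPRC (CD45) and the endothelial list PECAM1 (CD31), all part of the sort gate. The values of these lists are therefore partly fixed by the sort. The 3 stromal markers summed to 1.52 to 47.2 CPM with G&T, 0 to 47.5 with Takara and 0 to 50.04 with NEB. The 5 basal or mesenchymal markers summed to 0 to 14, 0 to 7.12 and 0 to 126 CPM, with 4 of them at 0 with NEB. The part of these differences in the host gene values was not tested.

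The 10 hosts together took the largest share of reads with G&T and the smallest in NEB. Summed over the kept cells, their level was 1532 CPM with G&T (95% Poisson interval 1507 to 1557, 14556 reads), 822 CPM with Takara (805 to 838, 9629 reads) and 566 CPM with NEB (550 to 583, 4515 reads). These exact intervals cover counting error only, and reads without molecular identifiers are not independent molecules. Per cell the sum ranged from 975 to 2404 CPM with G&T with a median of 1456, from 384 to 1168 CPM with Takara with a median of 886, and from 331 to 839 CPM with NEB with a median of 550. The means were 1474 ± 433 CPM (SD, n = 11 cells), 820 ± 245 and 570 ± 173. Every G&T cell lay above every NEB cell, while the Takara cells overlapped with both. Fewer host molecules per cell and more of other RNA cannot be told apart in such shares. Set against the ERCC spike-ins, the hosts had 79.3 reads per 1000 ERCC reads with G&T, 84.8 with Takara and 4.32 with NEB.

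**Figure D1:**
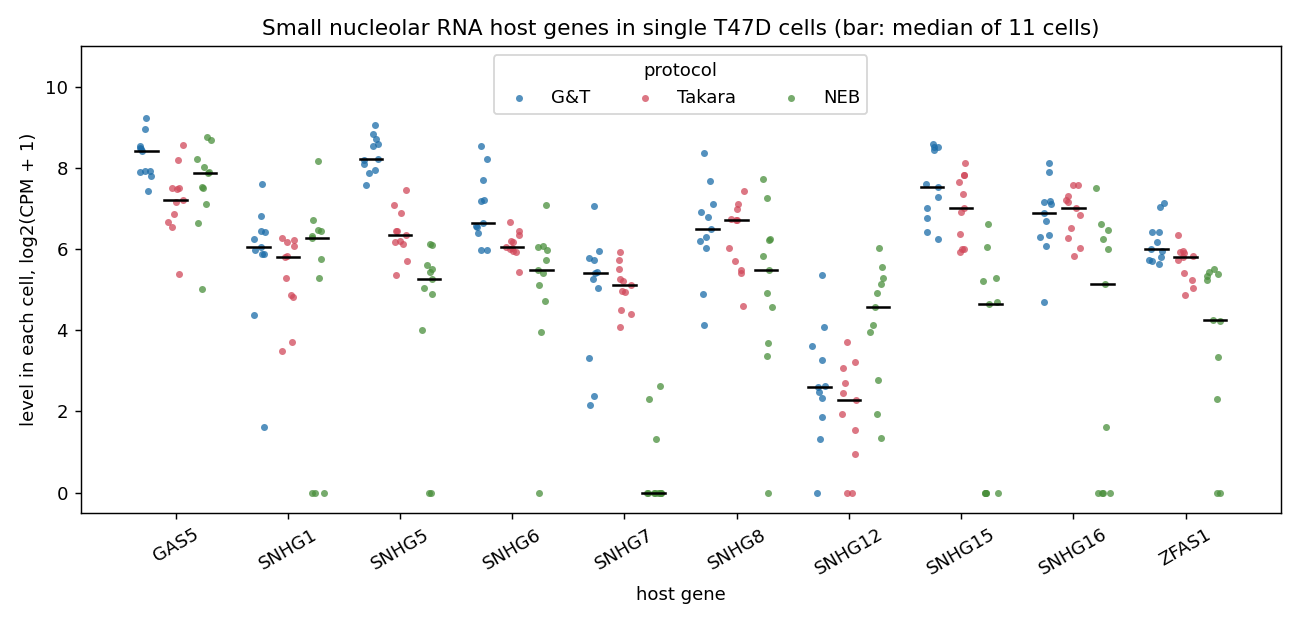
Level of each of the 10 host genes in each kept cell, on a log2(CPM + 1) axis, with 11 cells per protocol as points (G&T blue, Takara red, NEB green) and the median of the 11 cells as a black bar. Points on 0 are cells with no read: 1 with G&T, 2 with Takara and 26 with NEB, out of 110 values each.

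GAS5, the host with the most snoRNAs, had reads in every kept cell of each protocol. Its level per cell was lowest at 172, median 337 and highest at 594 CPM with G&T. In Takara it was 41.0, 146 and 380 CPM, and with NEB 31.5, 234 and 430 CPM. All 3 ranges overlapped. Pooled over cells it was 335 CPM with G&T (323 to 347), 169 CPM with Takara (162 to 177) and 226 CPM with NEB (215 to 236). The pooled log2 ratio of G&T over Takara was 0.98, just under 2-fold, that of G&T over NEB 0.57 and that of Takara over NEB -0.41. Here and below, ratios are of CPM + 1, which understates the change of low genes. The gap between the mean levels of G&T and Takara cells was larger than the larger SD over cells, whereas both gaps to NEB lay within it.

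SNHG1, the host of the SNORD25 to SNORD31 group, was nearly level in G&T and NEB. Cells ranged from 2.07 to 193 CPM with G&T with a median of 65.7, from 10.3 to 76.4 CPM with Takara with a median of 54.6, and from 0 to 287 CPM with NEB with a median of 76.8. Summed over cells, the level was 71.8 CPM with G&T (66.5 to 77.4), 45.8 CPM with Takara (42.0 to 49.9) and 76.5 CPM with NEB (70.6 to 82.8). The log2 ratio of G&T over Takara was 0.64, that of G&T over NEB -0.09 and that of Takara over NEB -0.73. The second turned to 0.40 without the NEB cell E2. That cell held 218 of the 610 NEB reads (35.7%), while 3 NEB cells had none. Every gap lay within the larger SD over cells.

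SNHG5, host of the SNORD50 pair, was the only host whose cells separated in more than 1 pair of protocols. In G&T its lowest cell had 189 CPM, the median was 296 and the highest 533. In Takara the values were 40.2, 80.5 and 175 CPM, and with NEB 0, 37.4 and 68.5 CPM. Every G&T cell lay above every Takara cell and above every NEB cell, while Takara and NEB cells overlapped. In pooled reads it stood at 340 CPM with G&T (328 to 352), 88.1 CPM with Takara (82.8 to 93.6) and 34.5 CPM with NEB (30.5 to 38.8). Its log2 ratio was 1.94 (3.83-fold) between G&T and Takara, 3.26 (9.61-fold) between G&T and NEB, and 1.33 (2.51-fold) between Takara and NEB. With all deposited cells, which add a NEB cell of 163 SNHG5 reads (B2), the ratios to NEB were 2.67 for G&T and 0.81 for Takara, the latter under 2-fold. In GENCODE 44, 60.7% of its reference (canonical) transcript overlaps exons of other annotated genes, where a read can be left unassigned.

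ZFAS1, a host of 3 SNORD12 snoRNAs antisense to ZNFX1, followed the same order of pooled levels. Its cells held 48.5 to 139 CPM with G&T with a median of 63.0, 28.0 to 80.8 CPM with Takara with a median of 54.9, and 0 to 44.2 CPM with NEB with a median of 18.2. Every G&T cell lay above every NEB cell, and the other ranges overlapped. The pooled level was 80.3 CPM with G&T (74.7 to 86.2), 50.1 CPM with Takara (46.1 to 54.3) and 22.3 CPM with NEB (19.2 to 25.9). The log2 ratios were 0.67, 1.80 (3.49-fold) and 1.13 (2.19-fold) in the same order of pairs. Without the NEB cell E2, which had no read, the last was 0.99, and with all deposited cells it was 0.94. Other annotated genes overlap 65.4% of its canonical transcript.

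SNHG6 (ENSG00000245910; chromosome 8, 66920561 to 66926398, minus strand), host of SNORD87, was also highest in G&T, and the spread there was wide. G&T cells ranged from 62.2 to 367 CPM with a median of 98.4, Takara cells from 42.0 to 100 CPM with a median of 64.8, and NEB cells from 0 to 136 CPM with a median of 43.4. All ranges overlapped. Pooled over cells it was 161 CPM with G&T (153 to 170), 68.9 CPM with Takara (64.2 to 73.8) and 47.8 CPM with NEB (43.1 to 52.8), or log2 ratios of 1.22 (2.32-fold), 1.73 (3.33-fold) and 0.52 in the same order of pairs. The first rested on the G&T cell H1, which held 354 of the 1532 reads. Without it the log2 ratio was 0.99. Other genes overlap 81.7% of the canonical SNHG6 transcript.

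SNHG16, host of the SNORD1 snoRNAs, was level between G&T and Takara. G&T cells ranged from 24.9 to 279 CPM with a median of 117, Takara cells from 55.4 to 191 CPM with a median of 127, and NEB cells from 0 to 179 CPM with a median of 34.1. In NEB 4 of the 11 cells had no read, and the ranges overlapped in each pair. Summed over cells, the level was 137 CPM with G&T (130 to 144), 125 CPM with Takara (118 to 131) and 48.0 CPM with NEB (43.3 to 53.1). Its log2 ratios were 0.13, 1.49 (2.81-fold) and 1.36 (2.56-fold) in the same order of pairs, and the first was -0.09 without the G&T cell D2.

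SNHG7, host of SNORA17A and SNORA17B, was low in the kept NEB cells. It had 407 reads with G&T and 403 with Takara, in every kept cell of both, against 9 reads in 3 NEB cells. Cells ranged from 3.43 to 131 CPM with G&T with a median of 41.6, from 15.8 to 59.9 CPM with Takara with a median of 33.7, and from 0 to 5.19 CPM with NEB with a median of 0. Every Takara cell therefore lay above every NEB cell, while 2 low G&T cells reached into the NEB range. In pooled reads it stood at 42.8 CPM with G&T (38.8 to 47.2), 34.4 CPM with Takara (31.1 to 37.9) and 1.13 CPM with NEB (0.516 to 2.14). G&T over Takara gave a log2 ratio of 0.31, against 4.36 when set over NEB, and Takara over NEB gave 4.06. Of the G&T reads, 32.4% came from cell B1, and without it the ratio of G&T over Takara was -0.08. A NEB cell removed for its ERCC share, B2, held 49 SNHG7 reads, more than all kept NEB cells together. With all deposited cells the ratios to NEB were 2.42 for G&T and 2.24 for Takara, so their size rested on which NEB cells were kept. Other annotated genes overlap 46.4% of the canonical SNHG7 transcript.

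SNHG15, host of SNORA9, was likewise low in NEB, though less uniformly. G&T cells ranged from 75.0 to 382 CPM with a median of 183, Takara cells from 59.9 to 277 CPM with a median of 128, and NEB cells from 0 to 97.5 CPM with a median of 23.9. In NEB 5 cells had no read and cell A1 held 65 of the 202 reads. All ranges overlapped. The pooled level was 233 CPM with G&T (224 to 243), 147 CPM with Takara (140 to 154) and 25.3 CPM with NEB (22.0 to 29.1), with log2 ratios of 0.66, 3.15 (8.90-fold) and 2.49 (5.63-fold) in the same order of pairs.

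SNHG8, host of SNORA24, differed little relative to its spread. Its cells held 16.6 to 328 CPM with G&T with a median of 88.8, 23.3 to 171 CPM with Takara with a median of 103, and 0 to 212 CPM with NEB with a median of 44.1. Pooled over cells it was 121 CPM with G&T (114 to 128), 89.2 CPM with Takara (83.9 to 94.8) and 60.4 CPM with NEB (55.2 to 66.1). The log2 ratios were 0.44, 0.99 and 0.55 in the same order of pairs, and each gap lay within the larger SD over cells. Other annotated genes overlap 40.3% of the canonical SNHG8 transcript.

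SNHG12, which holds both classes of snoRNA, was the only host past 2-fold in the direction of NEB. It had 195 reads with NEB, in all 11 cells, against 91 in 10 G&T cells and 52 in 9 Takara cells. Cells ranged from 0 to 39.7 CPM with G&T with a median of 5.07, from 0 to 12.1 CPM with Takara with a median of 3.88, and from 1.53 to 64.0 CPM with NEB with a median of 22.7. The ranges overlapped, although 8 of the 11 NEB cells lay above every Takara cell. Summed over cells, the level was 9.58 CPM with G&T (7.71 to 11.8), 4.44 CPM with Takara (3.31 to 5.82) and 24.5 CPM with NEB (21.1 to 28.1). G&T over Takara gave a log2 ratio of 0.96, whereas those over NEB were -1.27 for G&T and -2.23 for Takara. Cell E2 alone gave 41.8% of the G&T reads. Per ERCC read SNHG12 was lower with NEB than in the other protocols, as were the other 9 hosts, so its direction holds only as a share of reads on genes.

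**Figure D2:**
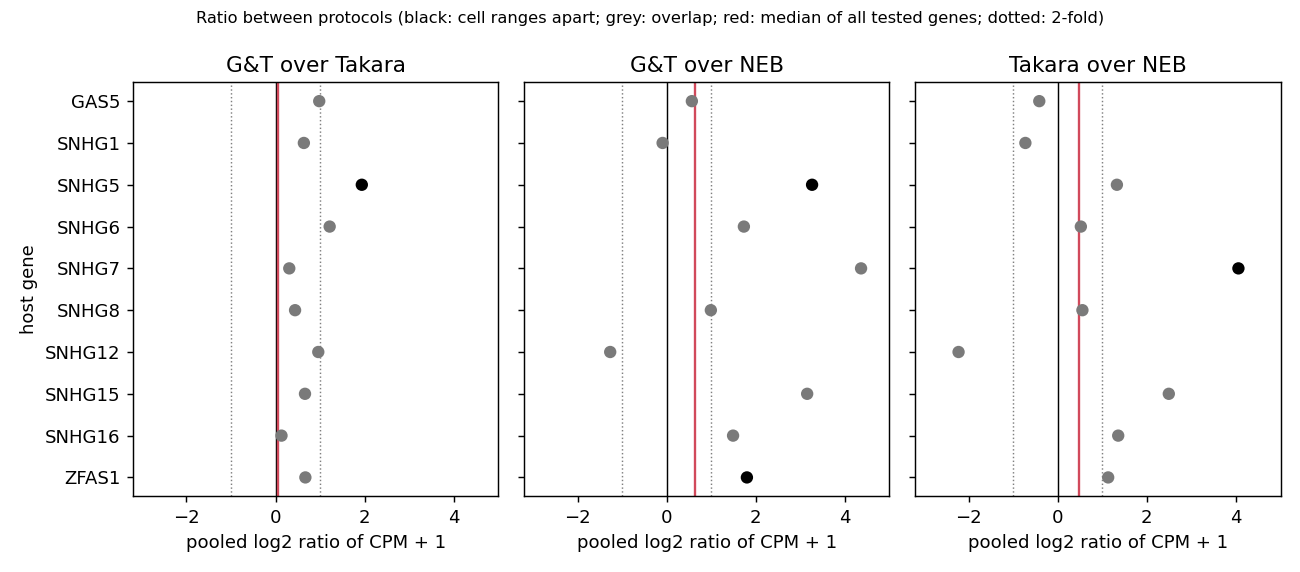
Pooled log2 ratio of CPM + 1 of each host gene between protocols, 1 panel per pair, with 11 cells summed per protocol. Black points are hosts whose cells did not overlap between the protocols and grey points those that did; the red line is the median of all tested genes and the dotted lines mark 2-fold. SNHG12 is the only host left of the lower dotted line, in both comparisons with NEB.

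Counted over the hosts, 2 of 10 were over 2-fold higher with G&T than in Takara (SNHG5 and SNHG6) and 0 were lower. Among the 13164 genes with a mean of at least 1 CPM, 22.3% were higher in that sense and 17.7% lower, so the number of hosts called was near the background. The ratio of all 10 hosts was above the median of all genes in this pair, with a host median log2 ratio of 0.67 against 0.05, while 7 of 10 were above it in each comparison with NEB. Between G&T and NEB 6 hosts were higher (SNHG5, SNHG6, SNHG7, SNHG15, SNHG16 and ZFAS1) and 1 lower (SNHG12), beside a background of 44.5% higher and 20.9% lower. The medians were 1.61 for the hosts and 0.64 for all genes. Between Takara and NEB 5 were higher (SNHG5, SNHG7, SNHG15, SNHG16 and ZFAS1) and 1 lower (SNHG12), beside 42.2% and 24.8%, with medians of 0.84 and 0.47. These comparisons share their samples, so they are not independent. Among long noncoding RNA genes as a class the medians were 0.40, 0.07 and -0.49, with 31.3%, 36.7% and 27.7% of tested genes higher in the same order of pairs.

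Complete separation of cells was rarer. It held for 1 host in G&T over Takara (SNHG5), where 0.744% of all genes separated in that direction, for 2 with G&T over NEB (SNHG5 and ZFAS1) beside 3.76%, and for 1 with Takara over NEB (SNHG7) beside 9.14%. No host separated in the opposite direction, where the background was 1.41%, 1.17% and 1.75%. The gap between cell means was larger than the larger SD over cells for 2 hosts higher with G&T than Takara, beside 6.27% of all genes, and for 6 higher with G&T than NEB, beside 17%. For Takara over NEB it was so for 5 higher hosts, beside 26.5%, and for 1 lower host, SNHG12, beside 4.92%. No host was lower by this measure with G&T than Takara or NEB, where the background was 14% and 4.58%.

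Detection of the hosts was nearly complete with G&T and Takara and patchy in NEB. A cell had reads on 9.91 ± 0.30 of the 10 hosts with G&T (SD, n = 11 cells), 9.82 ± 0.40 with Takara and 7.64 ± 1.43 with NEB. With each cell thinned to 624772 reads on genes the means were 9.88, 9.75 and 7.61. In G&T and Takara 9 hosts had reads in every cell, SNHG12 being the exception in both, against 42.7% and 50.6% of all genes with a mean of at least 1 CPM. In NEB GAS5 and SNHG12 did, and 10.6% of all genes. Of genes of at least 10 CPM, a limit chosen after the data were seen, 65.9%, 76.5% and 16.6% had reads in every cell. SNHG7 was found in 3 NEB cells, SNHG15 in 6, SNHG16 in 7, SNHG1 in 8, SNHG5 and ZFAS1 in 9, and SNHG6 and SNHG8 in 10.

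The make-up of the host reads differed between protocols. GAS5 made up 21.8% of host reads with G&T, 20.6% with Takara and 39.9% with NEB. SNHG5 made up 22.2%, 10.7% and 6.09%, SNHG15 15.2%, 17.9% and 4.47%, and SNHG1 4.69%, 5.58% and 13.5%. The reads of GAS5 for each read of SNHG5 were 0.98 with G&T, 1.92 with Takara and 6.55 with NEB. Cell by cell the same ratio ran from 0.38 to 1.78 with G&T (median 0.99) and from 0.80 to 4.41 with Takara (median 1.68). In the 9 NEB cells with SNHG5 reads it ran from 2.08 to 10.2, with a median of 3.1. The pooled NEB ratio also counts the GAS5 reads of 2 cells without SNHG5 reads. GAS5 exceeded SNHG5 in 5 G&T cells, 10 Takara cells and all 11 NEB cells.

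**Figure D3:**
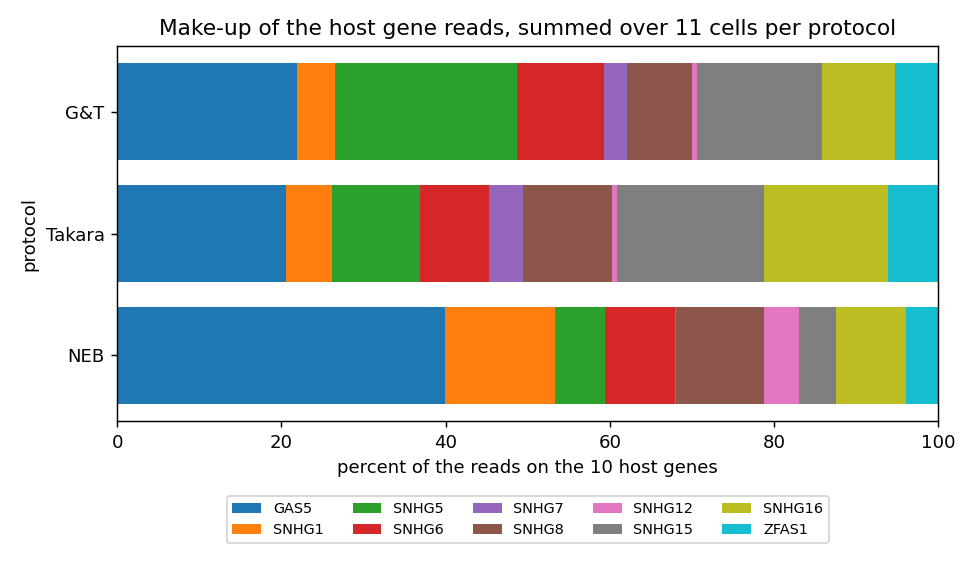
Share of each host in the reads of the 10 host genes, in percent, summed over 11 cells for each protocol and not scaled by gene length. GAS5 takes 21.8% with G&T, 20.6% with Takara and 39.9% with NEB, and SNHG5 takes 22.2%, 10.7% and 6.09%.

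Levels of different hosts were compared per kilobase of the GENCODE canonical transcript (RPKM over reads on genes). GAS5 led with G&T with 436 RPKM and with NEB with 294, and stood with SNHG16 at the top with Takara, at 220 against 250, a gap within their spread over cells. In G&T SNHG16 (275) and SNHG5 (258) came next and did not differ beyond their spread over cells, followed by SNHG6 (88.6), SNHG15 (77.9) and SNHG1 (61.8), again not apart from their neighbours within the group. SNHG12 was last in G&T at 5.12 and with Takara at 2.37. In NEB the places after GAS5 were SNHG16 (96.5), SNHG1 (65.8), SNHG6 (26.2), SNHG5 (26.2), SNHG12 (13.1), SNHG8 (9.80), SNHG15 (8.45) and ZFAS1 (4.93), and no neighbours among these differed beyond their spread. SNHG7 was last in NEB at 0.479, apart from ZFAS1. The order rests on the transcript chosen, since the canonical transcripts of SNHG8 and ZFAS1 are long ones (6166 and 4526 bases) and that of SNHG16 is short (498 bases). By the union of all annotated exons SNHG15 led with Takara and only 2 hosts kept their place with G&T, 4 with Takara and 3 with NEB.

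The coefficient of variation over cells had a median of 62.5% over the 10 hosts with G&T, 48.0% with Takara and 91.9% with NEB. In each protocol 9 hosts had pooled levels of 10 to 400 CPM, with medians of 58.1%, 43.6% and 78.7%, beside 72.1%, 51.3% and 133% for all genes in that range of levels. Of these 9 hosts, 7 lay below the median of all genes with G&T, 5 with Takara and 9 with NEB. Levels within that range were not matched. The 9 hosts held 42.8 to 340 CPM with G&T, 34.4 to 169 with Takara and 22.3 to 226 with NEB. With G&T the median of all genes was 96.6% from 1 CPM upward and 71.1% from 10 CPM upward. The part of level in these counts was not tested. The host below 10 CPM had the highest variation of the 10 each time. It was SNHG12 with G&T (125%) and Takara (88.3%), and SNHG7 with NEB (192%). SNHG5 was the steadiest host in G&T at 31.5%, SNHG6 with Takara at 22.0% and GAS5 with NEB at 53.7%. Over the 45 pairs of hosts, Spearman's rho over cells was above 0 for 36 pairs with G&T, 40 with Takara and 25 with NEB, with medians of 0.23, 0.34 and 0.02, as a description of 11 cells each.

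Few reads were counted on the snoRNAs themselves. GENCODE 44 annotates 26 snoRNA genes inside the hosts, none of them in GAS5, and 23 have a row in the tables. Reads in any kept cell were found on 4 of the 23 (17.4%), close to the 173 of all 966 snoRNA rows (17.9%). A total of 19 lie wholly inside GENCODE 44 exons of longer host transcripts, and 18 of those had no read. Of the 3 wholly outside host exons 2 had reads. The part of this overlap in the missing reads was not tested. The 4 with reads are SNORD99 in SNHG12, SNORD12C and SNORD12B in ZFAS1, and SNORD30 in SNHG1. Their GENCODE sequences are shown because these are the hosted snoRNAs seen in the data, with the C box letters TGATGA and the D box letters CTGA in capitals where both were found in that order on the RNA strand.
SNORD99 chr1:28578749-28578822, minus: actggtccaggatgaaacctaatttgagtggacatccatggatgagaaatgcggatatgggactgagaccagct
SNORD12C chr20:49278940-49279028, plus: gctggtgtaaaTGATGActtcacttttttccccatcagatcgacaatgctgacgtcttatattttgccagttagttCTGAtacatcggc
SNORD12B chr20:49280319-49280409, plus: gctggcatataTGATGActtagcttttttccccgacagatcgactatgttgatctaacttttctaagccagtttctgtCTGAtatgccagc
SNORD30 chr11:62853663-62853732, minus: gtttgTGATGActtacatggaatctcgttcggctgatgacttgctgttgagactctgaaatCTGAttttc

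The exact letters of both boxes in this order occur in 31.6% of the 942 snoRNA genes with a sequence and in 8 of the 25 hosted ones examined. Both sets mix C/D and H/ACA snoRNAs, so these are not shares of the C/D class. All 8 hosted ones have SNORD symbols. SNORD99, which lies outside every annotated SNHG12 exon, had 7 reads in 4 G&T cells, 3 reads in 2 Takara cells and 77 reads in 10 NEB cells. That is 0.737 CPM with G&T (0.296 to 1.52), 0.256 with Takara (0.0528 to 0.748) and 9.66 with NEB (7.62 to 12.1). Its host SNHG12 had reads in all cells with SNORD99 reads, 4, 2 and 10 of them. In NEB the median cell had 6 SNORD99 reads and 16 SNHG12 reads, and the cell with the most SNORD99 reads (E1, 16) had only 2 on SNHG12. SNORD12C, outside the ZFAS1 exons, went the other way, with 3 reads in 3 G&T cells, 22 reads in 7 Takara cells and 0 with NEB, which allows up to 0.376 CPM there. SNORD12B had 3 reads in all and SNORD30 had 2. SNORD1B, the other snoRNA outside host exons, had 0. Reads on such a row may come from unspliced host RNA or from the snoRNA, which these counts cannot tell apart.

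**Figure D4:**
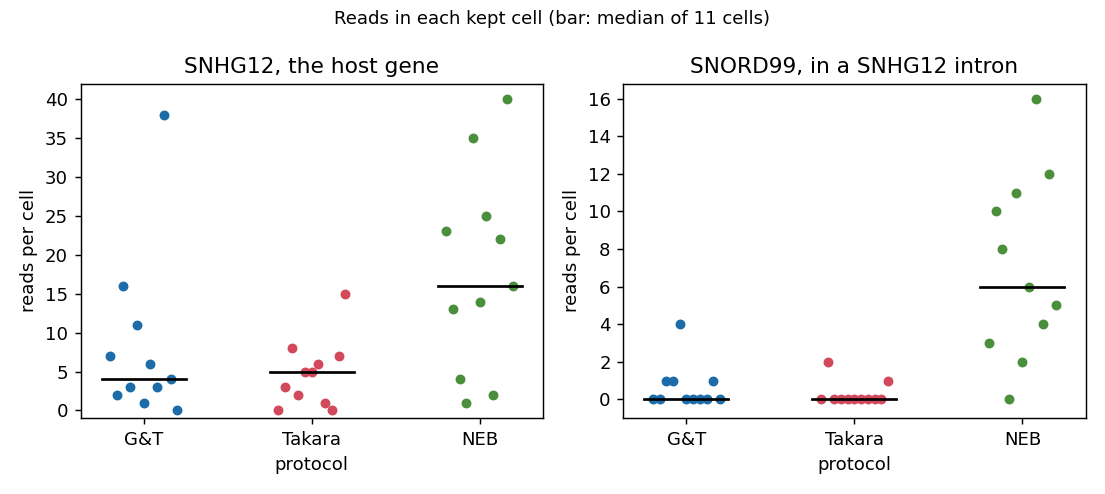
Reads per kept cell on SNHG12 (left) and on SNORD99, which lies in a SNHG12 intron (right), with 11 cells per protocol as points and the median as a black bar; the axes differ. The median NEB cell has 16 SNHG12 reads and 6 SNORD99 reads, and the medians of SNORD99 are 0 with G&T and Takara.

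Other genes of the same biology were taken as whole lists. Of 18 other long noncoding hosts, 17 are in the tables and 15 were tested. For G&T over Takara 6 were higher and 1 lower, with a median log2 ratio of 0.66. For G&T over NEB 8 were higher and 2 lower (median 1.48), and for Takara over NEB 6 were higher and 3 lower (0.81). SNHG25 had 58.8 CPM with G&T, 10.1 with Takara and 0.627 with NEB, and SNHG19 had 73.6, 13.5 and 7.27 CPM. EPB41L4A-AS1 had 26.3 CPM with G&T, 5.55 with Takara and no read with NEB. SNHG14, by contrast, had 104 CPM with NEB against 24.0 with G&T and 11.1 with Takara. These medians lay close to those of the 10 hosts, on a different set of genes but the same libraries.

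Protein-coding hosts, which carry snoRNAs in introns of translation and other housekeeping genes, had 6 higher and 1 lower of 15 tested for G&T over Takara (median log2 ratio 0.72). For G&T over NEB 8 of 16 were higher and 1 lower (1.03), and for Takara over NEB 7 were higher and 3 lower (0.98). EEF2, the elongation factor that moves the ribosome along the message, had 668 CPM with G&T, 119 with Takara and 34.2 with NEB. Every G&T cell lay above every cell of the other protocols for EEF2. RPL5 had 2555 CPM with G&T and 959.9 with Takara, RPSA 1151 with G&T and 172 with NEB, and the chaperone gene HSPA8 4570 with Takara and 1122 with NEB.

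The 79 cytosolic ribosomal protein genes, some of which are also on the list of protein-coding hosts, were further above Takara and NEB with G&T than the 10 hosts were, by their medians. For G&T over Takara 50 were higher and 0 lower (median 1.20), for G&T over NEB 65 and 1 (2.08), and for Takara over NEB 34 and 4 (0.78). RPS29 had 1949 CPM with G&T and 347 with Takara, and RPL39 681 and 130. RPS28 had 772 CPM with G&T, 300.4 with Takara and 12.9 with NEB, RPS12 had 1705 CPM with G&T and 42.3 with NEB, and RPS2 had 1779 CPM with Takara and 140 with NEB.

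Genes whose products bind or assemble snoRNA particles had medians below those of the hosts in each pair. Of the 8 core proteins of snoRNA particles, 0 were past 2-fold between G&T and Takara (median log2 ratio -0.17), 2 were higher and 1 lower for G&T over NEB (0.03), and 2 higher and 1 lower for Takara over NEB (0.46). NOP56, a core C/D protein, had 271 CPM with G&T, 391 with Takara and 122 with NEB, and its partner NOP58 257, 192 and 517. FBL (fibrillarin, the methyltransferase) had 73.9, 82.9 and 35.7 CPM, DKC1 (dyskerin, the pseudouridine synthase) 115, 198 and 179.7, and GAR1 15.6, 24.2 and 30.9. Of 9 assembly factors, 1 was higher and 2 lower for G&T over Takara (-0.06), 4 and 1 for G&T over NEB (0.00), and 3 and 2 for Takara over NEB (0.35). RUVBL2 separated Takara from NEB, with 459 CPM against 43.3, while SHQ1 had 7.89 CPM with G&T, 26.5 with Takara and 76.5 with NEB. NAF1 had 12.2 CPM with G&T and 2.99 with Takara, and NUFIP1 12.6 with G&T, 13.2 with Takara and 2.01 with NEB.

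The nonsense-mediated decay genes, which act on several spliced hosts, were split as well. Of 14, 3 were higher and 2 lower for G&T over Takara (median log2 ratio 0.41), 3 and 2 for G&T over NEB (0.47), and 5 and 4 for Takara over NEB (0.06). The kinase gene SMG1 had 76.6 CPM with G&T, 9.56 with Takara and 48.8 with NEB. UPF2 had 77.7, 21.4 and 117 CPM, SMG5 48.8, 43.8 and 4.51 CPM, and SMG9 12.4 and 10.2 CPM with no read with NEB.

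Across cells of a protocol, the summed host level went with the summed level of the 79 ribosomal protein genes. Spearman's rho was 0.84 with G&T, 0.44 with Takara and 0.53 with NEB, and Pearson's r was 0.71, 0.62 and 0.55, over 11 cells each, as a description with no test. All are shares of the same libraries, so they are tied to one another and to depth. Without the 2 cells farthest from the median ribosomal level, r was 0.36, 0.16 and 0.17, so its size depended on the cells kept. In G&T this left in cell H1, with 142205 CPM on ribosomal protein genes and 1163 CPM on the hosts. With 1 cell left out in turn, rho ran from 0.78 to 0.96 with G&T, 0.25 to 0.58 with Takara and 0.37 to 0.65 with NEB. In G&T the host sum also went with the number of reads on genes, at a rho of 0.65, against 0.05 with Takara and -0.04 with NEB. With the 8 core proteins of snoRNA particles, rho was 0.55, 0.71 and 0.35.

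**Figure D5:**
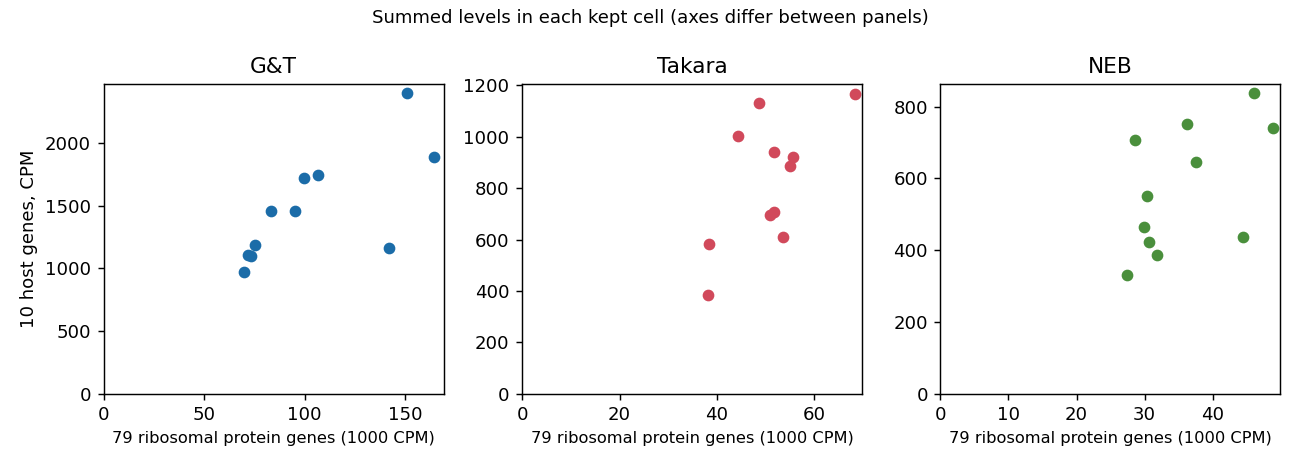
Summed level of the 10 host genes (CPM) against that of the 79 ribosomal protein genes (in units of 1000 CPM) in each kept cell, 1 panel per protocol with 11 points and its own axes from 0. Spearman's rho is 0.84 with G&T, 0.44 with Takara and 0.53 with NEB, and with the 2 most distant cells left out Pearson's r is 0.36, 0.16 and 0.17.

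Among the 2842 other genes with reads in at least 30 of the 33 kept cells, the 5 whose level was most like the host sum, each centred on its protocol mean on the log2(CPM + 1) scale, were RSL1D1 (rho 0.75), RPL38 (0.73), RPS24 (0.71), FAU (0.66) and PTRH2 (0.66). RPL38, RPS24 and FAU encode ribosomal proteins. RSL1D1 encodes a nucleolar protein and PTRH2 a mitochondrial peptidyl-tRNA hydrolase. Within protocols the rho of RSL1D1 was 0.84 with G&T, 0.76 with Takara and 0.60 with NEB. Its pooled level nevertheless had another order than the hosts, with 317 CPM with G&T, 250.2 with Takara and 941 with NEB. These 5 were the highest of many, and their values are a description of these 33 cells.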

How the data were processed

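Single T47D cells were measured by full-length RNA sequencing, and 1 table of raw read counts per protocol was deposited. The authors trimmed the reads with Trim Galore, aligned them to GRCh38 with STAR and took its count of reads per gene, without normalization, molecular identifiers or a filter. The annotation release and strand setting are not given in the sources used here, so reads on overlapping or antisense genes cannot be assigned with certainty. Cells were kept with at least 1000 genes, at least 600000 reads on genes and ERCC spike-ins, at most 30% mitochondrial and at most 25% ERCC reads, the thresholds of the study's methods. The 4 rows of unassigned reads stayed out of all totals.

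Reads of kept cells were summed per protocol and scaled to CPM over gene reads, and 1 CPM was added ahead of each log2 ratio. Genes with a mean of at least 1 CPM over a pair were compared with a limit of 2-fold. Exact Poisson intervals are at 95%, and 3 reads served as the limit for a count of 0. Gene models came from GENCODE 44, which matched 56104 of 60279 identifiers by Ensembl ID and may not be the release behind the counts. With 1 sample per protocol no p-value was computed. All host genes were named, with the 2 genes of each list that have the largest ratio in each pair and the 5 genes most like the host sum. The members and lists were chosen with earlier results of these data known. Steps were tested on simulated counts. Alternatives covered the cells kept, pooling, the pseudocount, TMM scaling (edgeR 4.0.16 in R 4.3.3), ERCC and nuclear denominators, filters, fold, length and single cells left out. Python 3.11.15 with scipy 1.17.1, pandas 2.3.3, numpy 2.4.6 and, for plots, matplotlib 3.10.9 was used elsewhere.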

Additional observations from a re-analysis of the deposited data

Results flagged for a closer look

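Cells that failed the quality thresholds, and so entered no comparison, still held reads on the hosts above the 3 reads that a count of 0 allows. The removed G&T cell F1 had 870 host reads, or 1491 CPM, near the median of the kept G&T cells, and the removed G&T cell C2 had 309, or 438 CPM, below every kept one. The removed NEB cell F2 had 304 host reads (553 CPM) on 9 hosts. The removed NEB cell B2 had 284 (630 CPM) on 7 hosts, with 28.4% of its library on ERCC spike-ins. Its make-up was unlike the kept NEB cells. SNHG5 had 163 reads or 362 CPM there, against at most 68.5 CPM in a kept NEB cell, and SNHG7 had 49 reads or 109 CPM, against at most 5.19 CPM. GAS5 had 16 reads. The remaining removed cells, Takara C2 and F1 and NEB F1, had 1 host read each. With 11 kept cells per protocol, single cells were not screened for outlying values.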

How the results depend on the processing

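No paired analysis was possible because the wells of different protocols hold different cells and no test was made. Per ERCC read in place of per read on genes, the number of hosts over 2-fold higher became 0 between G&T and Takara and 10 in either comparison with NEB, with 0 lower in both of the latter. The share of all genes higher became 17.3%, 89.4% and 93.2%, so the 10 hosts were near that background. The host medians became -0.32, 4.33 and 4.52, while the median of all genes became -0.74, 2.64 and 3.48, so relative to all genes the hosts stood at 0.41, 1.68 and 1.04. SNHG12 turned to 1.32 (G&T over NEB) and 1.21 (Takara over NEB). With reads on nuclear genes as the denominator, which moved the median of all genes to 0.17, 0.83 and 0.48, 4 hosts were higher with G&T than Takara, beside 25.8% of all genes. At 1.5-fold 7 were, beside 33.4%, and 2 were lower with Takara than NEB, beside 31.7%. With all deposited cells 3 hosts were higher with Takara than NEB, beside 42.3%, and Takara cells had 8.46 hosts each. With at least 5 reads as the limit, G&T cells had 9.18 hosts, Takara cells 9.55 and NEB cells 7, so Takara then stood above G&T. Without the highest and lowest cell of each protocol, 4 hosts of G&T lay wholly above NEB, beside 12.5% of all genes. The order per length kept 2, 4 and 3 places by union exons. Pearson's r with the ribosomal protein genes was 0.71 with G&T and 0.62 with Takara.

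Leaving out single cells in turn gave 2 to 4 hosts higher with G&T than Takara, 6 to 7 higher with G&T than NEB and 4 to 5 higher with Takara than NEB, with 1 lower in each comparison with NEB. GAS5 passed 2-fold for G&T over Takara without any of 7 cells (G&T B1, B2, E2, G1 and H1, Takara C1 and D2; log2 ratio 1.02 to 1.22). SNHG12 did without any of 10 cells (G&T A2, B2, D1, D2, E1, G1 and H1, Takara B1, D2 and H1; 1.01 to 1.22). SNHG8 did for G&T over NEB without any of 11 cells (G&T A1, A2, B2, D1, E1, G1 and H1, NEB A2, B1, C1 and H2; 1.01 to 1.39). In the same comparisons, other cells left out lowered the log2 ratio to as little as 0.82 for GAS5. For SNHG12 the lowest was 0.41 and for SNHG8 0.69, both without the G&T cell E2. Another pseudocount, TMM factors, the mean of the cells and no filter left each host count within 1.5 times. With genes of at least 10 CPM, chosen after seeing the data, the background was 17.3%, 35.0% and 37.3% higher and 20.2%, 23.6% and 25.8% lower in the same order of pairs. NEB had the fewest reads and the most zeros, so its single-cell values are the least precise.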
